A study of Homo sapiens with 6 samples.

Results

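This account concerns 52 genes: 51 that build ribosomes and MYC, the transcription factor known for driving many of them. They were chosen by symbol from a fixed list, and all 52 were found once each among the 61859 genes with values in the deposited table. RNA was sequenced from OSC19SSZR, a line derived from oral squamous cell carcinoma that resists sulfasalazine, a drug that blocks cystine uptake. One group received control siRNA (n = 3) and the other FOXA1 siRNA (n = 3), through the lipid reagent Lipofectamine RNAi max, and RNA was taken after 48 h. Both groups are the same resistant line grown in DMEM with serum, and no parental cells are compared here. FOXA1 is a forkhead transcription factor that binds and opens chromatin in many epithelia, and the comparison asked what its loss does to gene expression in the resistant cells. Whether replicates were grown as separate cultures is not in the labels, and the p-values therefore describe only the spread among these 6 samples, which could be technical.

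Ribosomes are built in the nucleolus. RNA polymerase I copies the ribosomal DNA into a long precursor. Small nucleolar ribonucleoproteins (snoRNPs) then modify its nucleotides, and separate sets of processing factors cut it and fold it into the small and the large subunit. MYC binds E-box sequences near the start sites of many of these genes, and proliferating and malignant epithelia are known for high levels of both.

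The genes rose almost as a block. Of the 52, 50 were higher with FOXA1 siRNA and 0 were lower (limma, adjusted p under 0.05), where 26.8% of all 18460 tested genes were called higher and 25% lower. The 0 lower calls among the 52 were also 0 at an unadjusted p of 0.05, and 0 by edgeR, DESeq2 and limma-voom on the reads recovered from the table. For 50 genes the groups did not overlap with FOXA1 siRNA above control (29.5% of all tested genes), and NOP10 and NOC2L were the exceptions. The median log2 fold change of the 52 was 0.50, against 0.0039 over all tested genes. In these data well expressed genes were higher more often, and 48 of the 52 had a mean of at least 500 normalized counts (gene counts divided by a size factor per sample). Among the 7193 tested genes at that level, 42.8% were called higher and 23.8% lower (66.6% in either direction), and the median was 0.09. Of the 52, 18 rose by at least 1.5-fold, a size that 8.27% of all tested genes and 7.2% of those with a mean of at least 500 reached. Only DKC1 and RRS1 were at 2-fold or more (1.75% of all tested genes). In the authors' deposited table, 49 of the 52 were called higher and 0 lower at an adjusted p of 0.05, where 19.4% of the genes with an adjusted p were called higher.

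**Figure D1:**
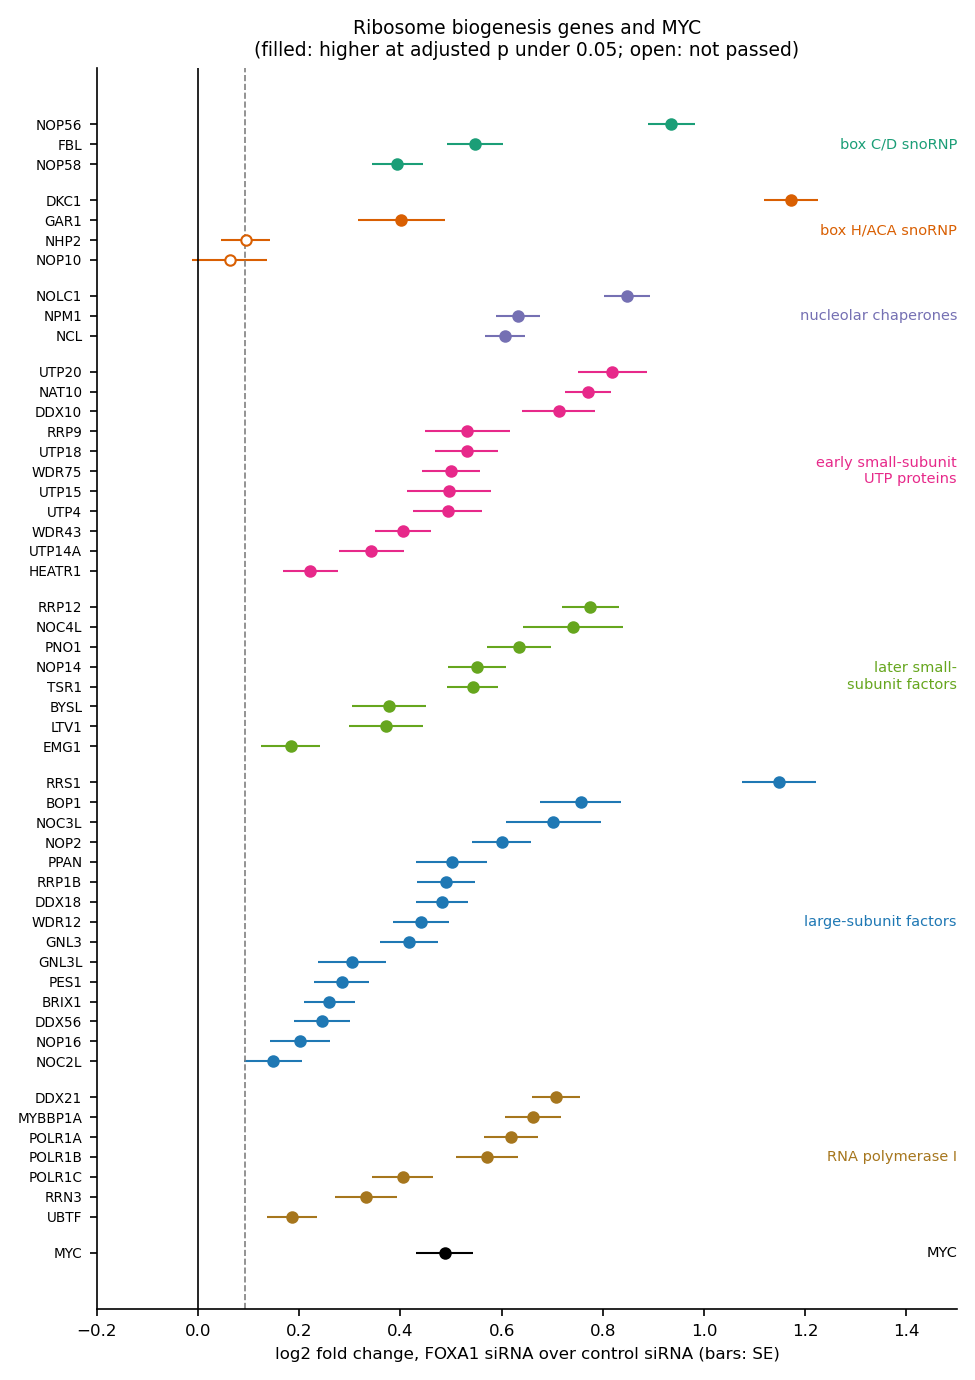
Log2 fold change (x axis, FOXA1 siRNA over control siRNA) of each of the 52 genes, grouped by role, with its standard error. Filled points passed at an adjusted p of 0.05, and open points (NHP2 and NOP10) did not. The solid line marks 0 and the dashed line the median of 0.09 over tested genes with a mean of at least 500. DKC1, RRS1 and NOP56 lie farthest to the right.

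**Figure D2:**
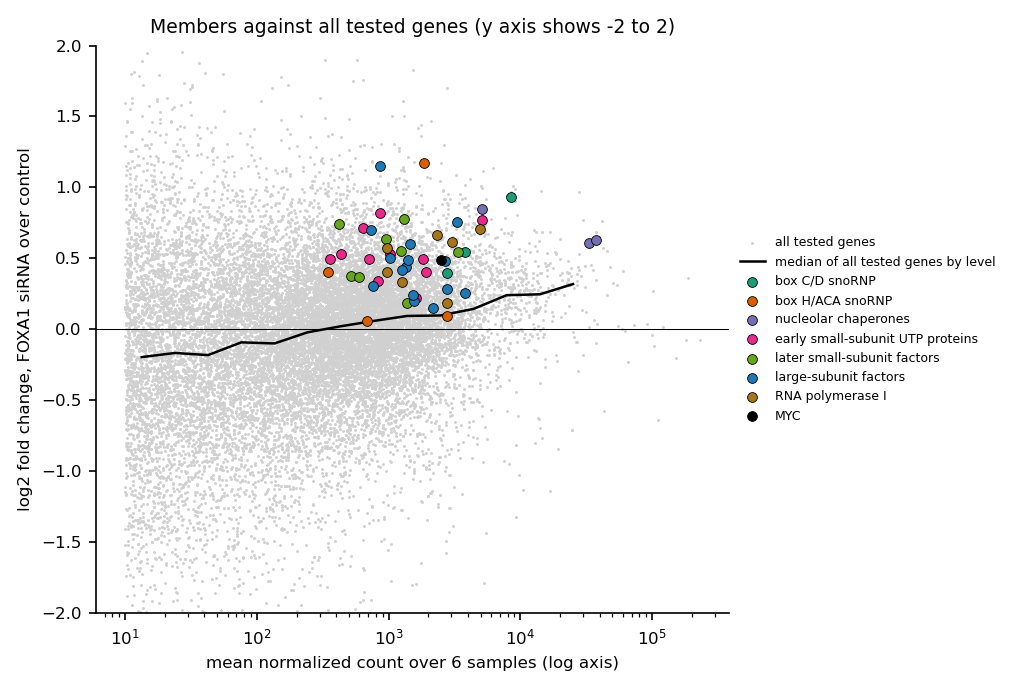
Log2 fold change (y axis) against the mean normalized count over the 6 samples (x axis, log scale) for all 18460 tested genes in grey, with the 52 genes coloured by role and the y axis limited to -2 to 2. The black line is the median of all tested genes by level, which is below 0 at low levels and above 0 at high levels, and 50 of the 52 coloured points are genes called higher.

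Facts of the whole series bear on these values. Recovered reads came to between 16510125 and 25732569 per sample. FOXA1 itself had 1477, 1378 and 1459 normalized counts in control replicates 1, 2 and 3 and 247, 192 and 189 in the FOXA1 siRNA replicates, which left 14.5% of the control mean (exact two-sided permutation p = 0.1, the smallest that 3 against 3 samples can give). When library totals were made equal, 3594 genes were higher and 5967 lower, against 4954 and 4617 as deposited. The median of the 52 genes was then 0.40 and that of all tested genes -0.093, against 0.50 and 0.0039 as deposited. Of 6 squamous epithelial markers, KRT5, KRT17, TP63, CDH1 and EPCAM were above 2800 normalized counts on average over the samples, and KRT14 was at 38.8. Among 8 markers of leukocytes, endothelium and fibroblasts, PTPRC, CD3E, PECAM1, VWF and COL3A1 averaged under 4, DCN was at 0 in every sample, CD68 averaged 91.4 and COL1A1 129. The summed squamous markers ran from 48731 to 50042 with control siRNA and from 49319 to 52351 with FOXA1 siRNA, while single markers moved in opposite directions. KRT17 (1.01 on the log2 scale) and EPCAM (0.14) rose, TP63 (-0.40) and KRT5 (-0.18) fell, and CDH1 and KRT14 did not pass. The 8 markers of other cell types summed to 241 to 253 normalized counts with control siRNA and to 178 to 210.1 with FOXA1 siRNA, and COL1A1 fell (-0.52, limma adjusted p = 0.00412). All 6 proliferation markers measured, MKI67, TOP2A, PCNA, MCM2, CCNB1 and CDK1, also rose, with a median of 0.73, and their part in the result was not tested. In such bulk samples a change in the number of cells of one state and a change in RNA per cell cannot be told apart.

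The 52 genes together took 0.730%, 0.739% and 0.749% of all normalized counts in control replicates 1, 2 and 3, and 1.02%, 1.03% and 1.05% with FOXA1 siRNA. These shares do not depend on the size factors. NCL and NPM1 alone made up 0.308% ± 0.0025 of the counts in the control samples, and 0.442% ± 0.014 after FOXA1 siRNA (SD, n = 3 each). The other 50 genes went from 0.431% ± 0.0092 to 0.590% ± 0.00040, so their share rose without those most abundant transcripts. The FOXA1 siRNA samples were above the control samples in each of these shares, with no overlap.

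Box C/D snoRNPs place methyl groups on ribosomal RNA, and NOP56, NOP58 and fibrillarin (FBL) are core proteins of the particle. All 3 rose, and NOP56 (GRCh38 chromosome 20, 2652145 to 2658393, plus strand) rose the most. It had 5566, 6105 and 5746 normalized counts in control replicates 1, 2 and 3 and 10741, 11471 and 11090 in the FOXA1 siRNA replicates. The lowest FOXA1 siRNA sample was far above the highest control. The rise was 0.94 ± 0.05 (log2 fold change ± SE, as in parentheses from here on; limma adjusted p = 1.65e-15), or 1.91-fold. NOP58, a relative of NOP56 that sits opposite it in the particle, had 2375, 2345 and 2429 counts against 2966, 3146 and 3291 (0.39 ± 0.05). FBL, the methyltransferase itself, had 3019, 2953 and 3252 against 4197, 4373 and 4931 (0.55 ± 0.06). Both separated the groups completely, with the highest value in FOXA1 siRNA replicate 3.

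The introns of several of these genes hold snoRNA genes, and 27 snoRNA rows lie within the bounds of 8 of the 52. SNORA56 in DKC1 shares 129 exonic bases with its host. Only 6 of the 27 had a mean of at least 10 normalized counts. SNORD86, inside NOP56 and on its strand, had the most of them, with 593, 564 and 586 counts in control replicates and 1149, 1266 and 1011 with FOXA1 siRNA. These values lie apart in the same direction as those of the host gene. SNORD57, SNORD110 and SNORA51, also inside NOP56, lay apart in that direction too, but not all of the 6 did. The groups overlapped in SNORD56 of NOP56 (26.6, 27.2 and 20.9 against 26.8, 46.3 and 26.1). They also overlapped in RF00575, a snoRNA row inside NOP58 (13.3, 19.2 and 23.0 against 16.1, 23.5 and 21.3). Reads from the mature snoRNA and from the host's own RNA cannot be told apart in these counts.

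Box H/ACA snoRNPs turn selected uridines of ribosomal RNA into pseudouridine and are also part of telomerase. Their 4 core proteins are dyskerin (DKC1), the pseudouridine synthase, and GAR1, NHP2 and NOP10. This particle held both the largest and the smallest change of the 52 genes. DKC1 (GRCh38 chromosome X, 154762742 to 154777689, plus strand) had 1137, 1129 and 1142 normalized counts in the control samples and 2469, 2577 and 2638 with FOXA1 siRNA. The control values lay close together, and the rise was 2.25-fold (1.17 ± 0.05, limma adjusted p = 2.57e-16). GAR1, with the lowest mean count of the 52 genes, had 295, 289 and 316 against 376, 404 and 408 (0.40 ± 0.09, limma adjusted p = 2.78e-04).

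The other two core proteins did not pass. NHP2 had 2757, 2598 and 2671 normalized counts in the control samples and 2863, 2898 and 2802 with FOXA1 siRNA. Its groups did not overlap, but the difference was small (0.09 ± 0.05, limma adjusted p = 0.111, approximate 95% interval -0.0020 to 0.19). NOP10 had 691, 615 and 708 against 641, 736 and 727, and the groups overlapped (0.06 ± 0.07, limma adjusted p = 0.509, interval -0.084 to 0.21). These intervals, from the normal approximation, do not show that either gene was unchanged. NHP2 shares 414 exonic bases with RMND5B on the opposite strand. NHP2 had the opposite sign under equal library totals, quantile normalization and cyclic loess, and NOP10 under equal library totals, none of them past the threshold.

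In most of the pairs chosen, the proportions of transcripts within a particle or enzyme also lay apart between the groups. DKC1 counts were 1.65, 1.83 and 1.61 times those of NOP10 in control replicates and 3.85, 3.50 and 3.63 times with FOXA1 siRNA. Against NHP2 the ratio of DKC1 went from 0.425 ± 0.011 to 0.898 ± 0.040 (SD, n = 3 each), and against GAR1 from 3.80 ± 0.16 to 6.47 ± 0.095. NOP56 stood at 2.44 ± 0.14 times NOP58 with control siRNA and at 3.55 ± 0.15 times with FOXA1 siRNA. In all, 9 such ratios were compared on the log2 scale by permuting the samples (exact, two-sided). For 8 of them the groups did not overlap (exact p = 0.1 each, the smallest possible with 3 against 3, and 0.1125 after Benjamini-Hochberg adjustment over the 9). The pairs were chosen with earlier results of these data known, and each sets a larger rise over a smaller one. Several pairs share a gene, and other gene pairs were not compared, so the count of 8 describes these pairs only. Per kilobase of the longest annotated coding transcript, control levels were 369 for DKC1, 245 for GAR1, 3093 for NHP2 and 1212 for NOP10. With FOXA1 siRNA they were 832, 324, 3300 and 1266, so NHP2 remained the highest and GAR1 the lowest of the 4 on that scale.

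**Figure D3:**
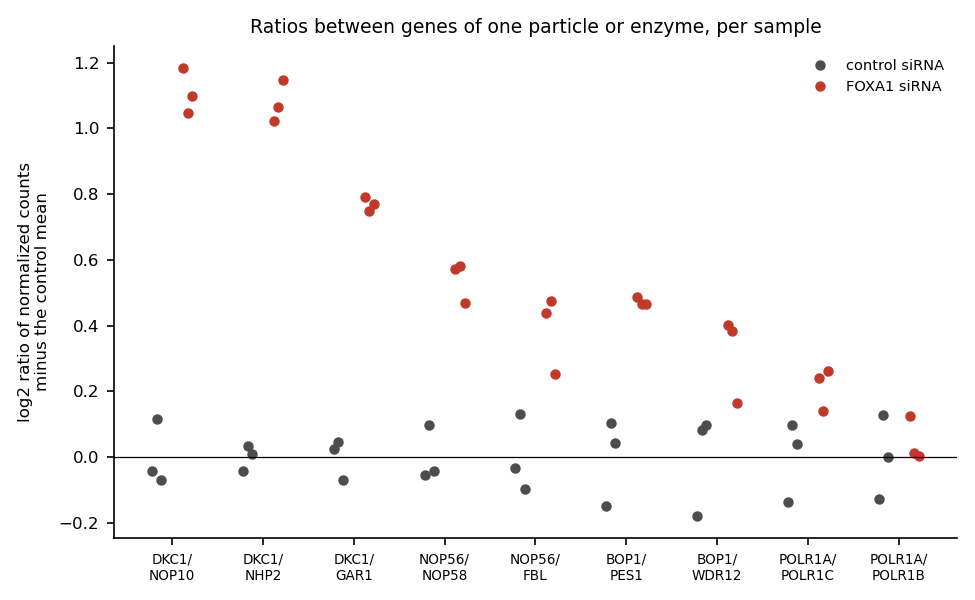
Log2 ratio of the normalized counts of 2 genes of the same particle or enzyme in each sample (y axis, with the control mean set to 0) for 9 pairs (x axis). Grey points are control siRNA and red points FOXA1 siRNA replicates. DKC1 against NOP10 and NHP2 shows the widest gap, and POLR1A against POLR1B overlaps.

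Nucleolin (NCL), nucleophosmin (NPM1) and NOLC1 are abundant nucleolar proteins that chaperone ribosomal RNA, ribosomal proteins and snoRNPs. NCL was at 26333, 26306 and 26291 normalized counts in the control samples and at 39280, 39909 and 40990 with FOXA1 siRNA (0.61 ± 0.04). NPM1 was at 30223, 28853 and 29690 against 43283, 45644 and 48775 (0.63 ± 0.04). Each rose by about the same factor, 1.52-fold and 1.55-fold, and no sample overlapped. The table lists 49 NPM1 pseudogenes, whose summed counts came to 2.31% of those of NPM1, and reads of these copies and of NPM1 may have been exchanged in the counting. For RRN3, an RNA polymerase I factor, 4 pseudogene rows came to 8.38%. NOLC1, which escorts snoRNPs to the nucleolus, rose more, from 3526, 3729 and 3756 to 6539, 6604 and 6672 (0.85 ± 0.05, limma adjusted p = 1.19e-14).

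**Figure D4:**
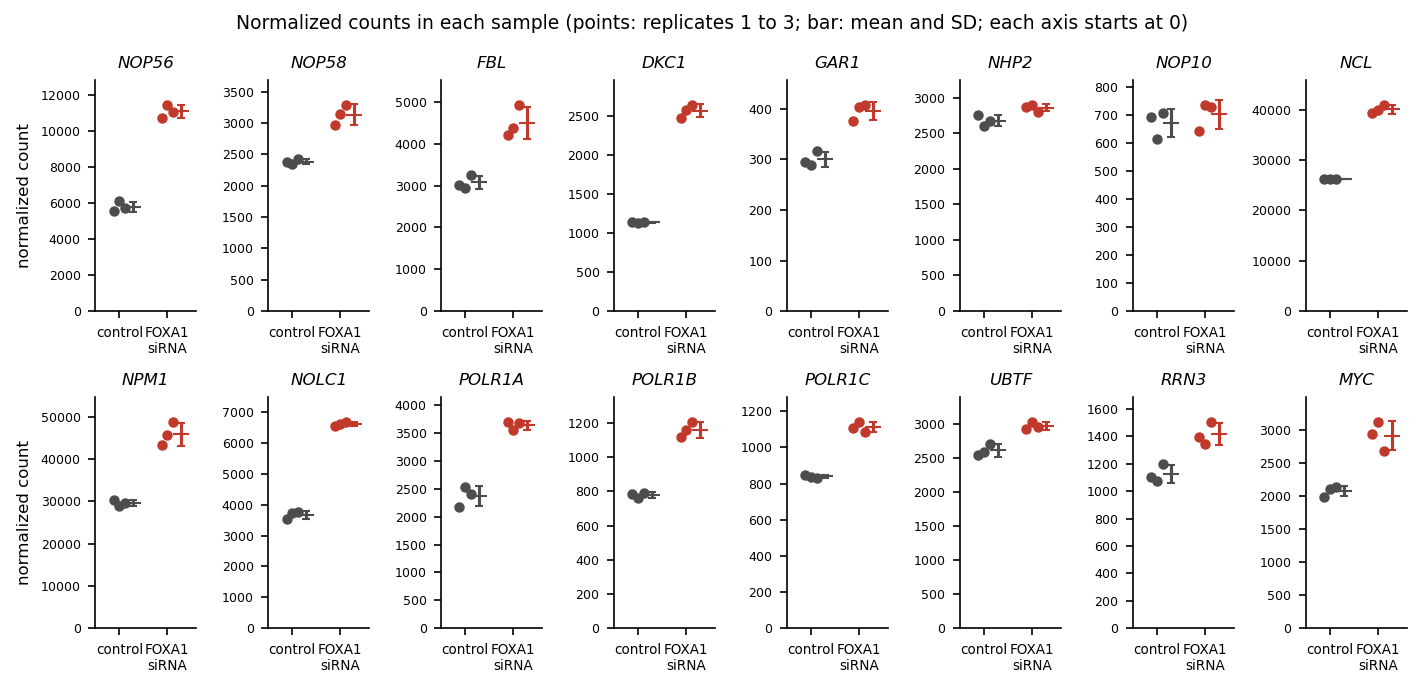
Normalized counts (y axes, each from 0) of 16 genes in every sample: snoRNP proteins, nucleolar chaperones, RNA polymerase I genes and MYC. Points are replicates 1 to 3 of each group, with the mean and SD beside them. NOP10 is the gene whose groups overlap, and NHP2 shows a narrow gap.

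The small subunit is assembled by the small-subunit processome, into which the UTP proteins enter first. All 19 small-subunit genes rose. The 11 that act in the early processome had a median of 0.50 and the 8 that act later one of 0.55. UTP20, a very large scaffold protein, had 639, 585 and 646 normalized counts in the control samples and 1063, 1062 and 1177 with FOXA1 siRNA (0.82 ± 0.07). NAT10, which acetylates cytidines in ribosomal RNA, went from 3723, 3800 and 3875 to 6466, 6532 and 6438 (0.77 ± 0.05). In both genes the replicates of a group lay close together and the groups far apart. The helicase gene DDX10 followed (0.71).

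The smallest early rise was that of HEATR1, the human UTP10, which also takes part in transcription of the ribosomal DNA. It had 1443, 1510 and 1507 counts against 1755, 1661 and 1789 (0.22 ± 0.05, limma adjusted p = 0.00124), and under equal library totals it no longer passed (0.12, adjusted p = 0.0615, against 0.00104 to 0.0615 across its alternatives). HEATR1 shares 2095 exonic bases with LGALS8 on the opposite strand, which had 2097, 2080 and 2046 counts against 982, 1005 and 1007, and reads of the pair cannot be told apart without strand. UTP14A had 709, 759 and 742 against 934, 952 and 917 (0.34 ± 0.06). The remaining early genes, WDR43, UTP4, UTP15, WDR75, UTP18 and RRP9, rose by 0.41 to 0.53. UTP4, UTP15, WDR43 and WDR75, which with HEATR1 belong to the UTP-A subcomplex, lay between 0.41 and 0.50.

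Among the later small-subunit genes, RRP12, an export factor of pre-ribosomes, had 928, 981 and 962 normalized counts in the control samples and 1642, 1665 and 1608 with FOXA1 siRNA (0.78 ± 0.06). NOC4L, the partner of NOP14, had 371, 271 and 301 against 567, 511 and 491 (0.74 ± 0.10), with more spread among its control samples. NOP14 itself was among the most even genes, at 1009, 1000 and 1005 against 1463, 1485 and 1470 (0.55 ± 0.06). It shares 605 exonic bases with NOP14-AS1 on the opposite strand, which had 622, 586 and 612 counts against 762, 793 and 822. The KH-domain protein gene PNO1 (0.63) and TSR1 (0.54) rose as well. LTV1, which guards the immature small subunit on its way to the cytoplasm, had 554, 529 and 486 against 655, 678 and 695 (0.37 ± 0.07), and BYSL rose alike (0.38). EMG1, a methyltransferase, had 1401, 1231 and 1273 against 1502, 1454 and 1471 (0.18 ± 0.06, limma adjusted p = 0.0108). Its call was lost without control siRNA replicate 2 (adjusted p = 0.0849) or 3 (0.0505) and under 5 other settings, and its alternatives spanned 0.00332 to 0.231. EMG1 shares 1505 exonic bases with LPCAT3 on the opposite strand, which had 945, 842 and 953 counts against 818, 754 and 738.

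The 15 large-subunit genes all rose too, with a median of 0.44 and the widest range among the processing factors. RRS1, which brings the 5S RNA particle into the large subunit, had 511, 577 and 502 normalized counts in the control samples and 1116, 1288 and 1124 with FOXA1 siRNA. That was a 2.22-fold rise (1.15 ± 0.07, limma adjusted p = 2.81e-13), second to DKC1 among the 52. BOP1, PES1 and WDR12 form one complex needed to process the RNAs of the large subunit, and they rose by different amounts. BOP1 had 2171, 2641 and 2613 against 4366, 4372 and 3787 (0.76 ± 0.08), PES1 rose by 0.28 ± 0.05 and WDR12 by 0.44 ± 0.06. The ratio of BOP1 to PES1 was 0.982 ± 0.088 in the control samples and rose past them to 1.36 ± 0.012 after FOXA1 siRNA (SD, n = 3 each).

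NOC3L (0.70), NOP2 (0.60), PPAN (0.50), RRP1B (0.49), the helicase gene DDX18 (0.48) and nucleostemin, GNL3 (0.42), rose by intermediate amounts. PPAN shares 1447 exonic bases with the readthrough gene PPAN-P2RY11, and NOP2 shares 2550 with a coding gene on its strand that has only a clone name, so their values are uncertain. In all, 18 of the 52 share exonic bases with another expressed protein-coding gene, among them RRS1 (194 bases) and TSR1 (1146 bases). Antisense genes that are not protein-coding are outside this count. GNL3L, BRIX1 and DDX56 rose by 0.30, 0.26 and 0.24.

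NOP16 and NOC2L were the smallest rises of the large-subunit group. NOP16 had 1452, 1467 and 1451 normalized counts against 1705, 1797 and 1532 (0.20 ± 0.06, limma adjusted p = 0.00563). Its call was lost without FOXA1 siRNA replicate 2 (adjusted p = 0.0530, and 1.26e-04 to 0.154 across its alternatives). The call was also lost under equal library totals (0.154), quantile normalization (0.0740), cyclic loess (0.121) and limma without its trend and robust options (0.0721). NOC2L, the partner of NOC3L, had 1929, 2095 and 2127 against 2343, 2387 and 2091. Its groups overlapped, since FOXA1 siRNA replicate 3 lay below the highest controls (0.15 ± 0.06, limma adjusted p = 0.0316). The call of NOC2L was lost under 12 of 20 alternatives, and its adjusted p spanned 0.00132 to 0.604 across them. It was lost without control siRNA replicate 1 (adjusted p = 0.180), FOXA1 siRNA replicate 1 (0.111) or FOXA1 siRNA replicate 2 (0.148). EdgeR (0.0577), DESeq2 (0.0630) and limma-voom (0.0581) did not call it. Equal library totals (0.498), quantile normalization (0.263), cyclic loess (0.604) and limma without its options (0.171) lost it too. The replicate block (0.0534) and the threshold of 0.01 complete the 12. In the authors' deposited table NOC2L was not called either (their adjusted p = 0.0528).

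RNA polymerase I is a multi-subunit enzyme that reads only the ribosomal DNA, with POLR1A and POLR1B forming its catalytic centre. POLR1A went from 2178, 2527 and 2409 normalized counts to 3693, 3545 and 3670 (0.62 ± 0.05). POLR1B had 785, 763 and 794 against 1116, 1159 and 1206 (0.57 ± 0.06). The ratio of these catalytic subunits was 3.04 ± 0.27 and 3.14 ± 0.15 (SD, n = 3 each), the single ratio of the 9 whose groups overlapped (exact permutation p = 0.5). POLR1C, an assembly subunit shared with RNA polymerase III, had 849, 838 and 831 against 1109, 1140 and 1085 (0.40 ± 0.06).

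The factors that load the enzyme rose too, with smaller fold changes than its 3 subunits above. UBTF, which binds and bends the ribosomal DNA, had 2539, 2585 and 2715 counts against 2928, 3031 and 2952 (0.19 ± 0.05, limma adjusted p = 0.00239). RRN3, the initiation factor TIF-IA, had 1105, 1072 and 1195 against 1397, 1343 and 1504 (0.33 ± 0.06). Neither gene overlapped between the groups, but UBTF did not pass under equal library totals (adjusted p = 0.137), quantile normalization (0.175) or cyclic loess (0.309). The difference between these factors and the enzyme's subunits was not tested. MYBBP1A, a nucleolar protein tied to both transcription and processing, rose from 1692, 1963 and 1804 to 2844, 2970 and 2816 (0.66 ± 0.06). DDX21, a helicase that also supports transcription by the enzyme, rose from 3667, 3785 and 3736 to 5997, 5879 and 6395 (0.71 ± 0.05).

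MYC had 1986, 2104 and 2138 normalized counts in the control samples and 2941, 3120 and 2682 with FOXA1 siRNA. Every FOXA1 siRNA sample was above every control, and the rise was 1.40-fold (0.49 ± 0.06, limma adjusted p = 2.74e-08). Its place among the 52 was 30 from the top, close to the median of 0.50, and it passed under each of the 20 alternatives (adjusted p from 1.70e-17 to 0.00448), with log2 fold changes from 0.37 to 0.55.

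MYC acts as a pair with MAX, and the MXD proteins, MNT and MGA compete for MAX and generally repress. Of 16 genes of this network 14 were expressed enough to test, and 5 rose and 4 fell, with a median of 0.05. These counts are near the shares over all tested genes (26.8% higher and 25% lower), so the calls below describe single genes and not the network. The largest change in the network was that of MXD4, one of the repressive partners of MAX, which fell. It had 1143, 1015 and 1041 normalized counts in the control samples and 247, 238 and 264 with FOXA1 siRNA, a log2 fold change of -2.09 ± 0.08 (limma adjusted p = 3.25e-18). The FOXA1 siRNA samples held less than the lowest control by a wide margin.

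MLXIP (-0.60 ± 0.06), a partner of the related factor MLX that responds to glucose, fell as well, and so did MNT (-0.23 ± 0.07) and MAX (-0.15 ± 0.05). MAX lost its call without control siRNA replicate 3 (adjusted p = 0.0682) or FOXA1 siRNA replicate 1 (0.0771), and MNT without control siRNA replicate 2 (0.106). MYCBP (0.75 ± 0.07), a MYC binding protein, and the MYC paralog MYCL (0.69 ± 0.08) rose, MYCL from 391, 367 and 424 to 568, 713 and 629 counts. MGA (0.25), MYCBP2 (0.25) and MXD3 (0.22) rose by smaller amounts, and these 3 did not pass under equal library totals. MYCN was under the level tested, at 7.99 and 11.6 counts on average, and so was MLXIPL.

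Of 12 textbook MYC targets outside the nucleolus, 11 rose and 0 fell (limma), with a median of 0.59. At an unadjusted p of 0.05, 1 was lower, and edgeR, DESeq2 and limma-voom each called 1 lower. CAD, the enzyme that starts pyrimidine synthesis, rose the most, from 1441, 1799 and 1612 normalized counts to 3412, 3432 and 3134 (1.04 ± 0.07). The gene that did not pass was ODC1, which makes polyamines, at 3838 and 3558 on average (-0.11 ± 0.05, limma adjusted p = 0.0536). Targets such as CDK4 (0.54) and LDHA (0.39) belong to other pathways too. For comparison, 26.8% of all tested genes were called higher, and 42.8% of the well expressed ones (500 normalized counts or more on average). All 6 proliferation markers rose as well, with a median of 0.73. Whether the rise was specific to MYC targets was not tested.

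Further genes of ribosome biogenesis from 4 lists were read in the same way, and 79 of 103 rose, 5 fell and 19 did not pass, with a median of 0.31. Over all tested genes the shares were 26.8% higher and 25% lower. Over the well expressed ones (500 normalized counts or more on average) they were 42.8% and 23.8%, with a median of 0.09. Of 11 genes for snoRNP assembly, 10 rose and 0 fell by limma (0 also at an unadjusted p of 0.05, by edgeR, by DESeq2 and by limma-voom). TCOF1, the treacle protein, led them (0.85 ± 0.05). Under equal library totals only 5 of the 11 were called higher. Among 37 other small-subunit genes 27 rose and 0 fell by limma (1 at an unadjusted p of 0.05, 1 by limma-voom, and 0 by edgeR and DESeq2), led by the helicase gene DHX37 (0.71 ± 0.08). Among 45 other large-subunit genes 38 rose and 3 fell. URB2 rose the most (0.95 ± 0.08), from 329.8 ± 9.21 to 636 ± 26.5 counts (SD, n = 3 each). NOL9, a kinase that takes part in processing the precursor, fell the most (-0.32 ± 0.09).

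Of the other RNA polymerase I genes, 4 of 10 were higher and 2 lower. These counts are near the shares among tested genes with a mean of at least 500 (42.8% higher and 23.8% lower). The calls below therefore describe single genes and not the list. POLR1G (0.63 ± 0.07) and POLR1F (0.63 ± 0.09), subunits specific to this enzyme, rose. TAF1C, a subunit of the factor that marks the promoter of ribosomal DNA, fell (-0.24 ± 0.07), and so did POLR1D (-0.15 ± 0.05). In limma without its trend and robust options neither was called lower (TAF1C adjusted p = 0.0650). Only 1 of the 10 was lower at a threshold of 0.01, without control siRNA replicate 1 or without FOXA1 siRNA replicate 2. In POLR1H one control sample stood far below the others, at 148, 52.5 and 218 normalized counts, and the gene did not pass (0.89 ± 0.61, limma adjusted p = 0.301).

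**Figure D5:**
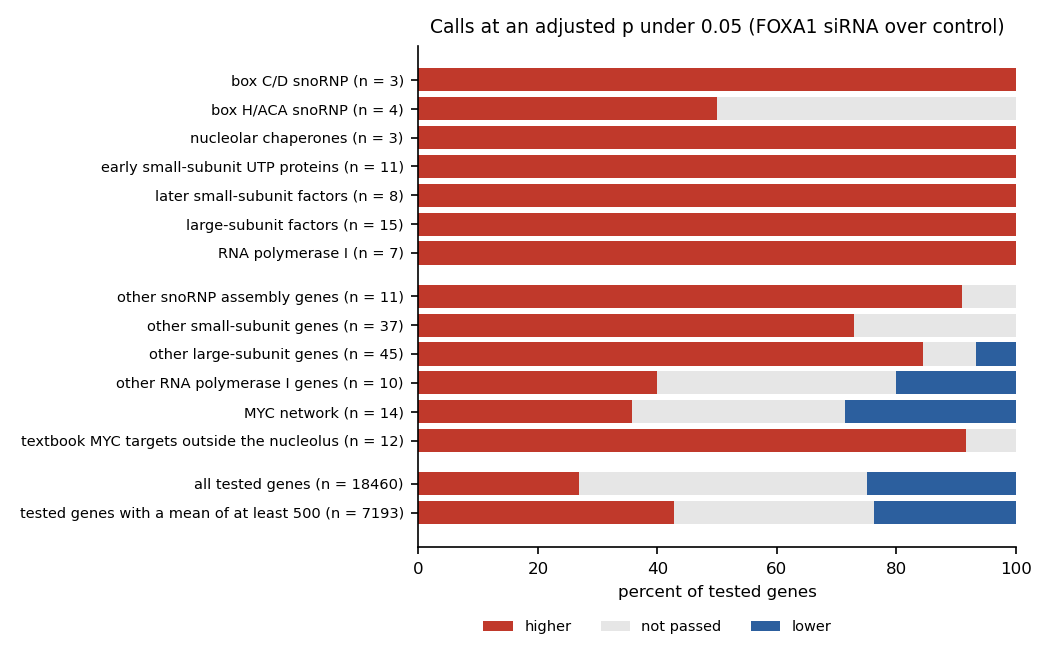
Percent of tested genes (x axis) called higher, not passed or lower at an adjusted p of 0.05 in each group of genes (y axis, with the number tested). All groups of the 52 genes are entirely higher except box H/ACA, where 2 of 4 did not pass, and the lower bars give all tested genes (26.8% higher) and those with a mean of at least 500 (42.8%).

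Because the genes moved together, the sequence around their start sites was read for the E-box bound by MYC and MAX, CACGTG, a word that reads the same on both strands. RefSeq promoter windows of GRCh38.p14, from 250 bases before to 50 after the start, were matched by symbol for 44 of the 52 genes. The word stood in 17 of the 44 windows (38.6%), against 7.43% of 27305 windows of all genes and 11% of 5455 windows of tested genes with a mean of at least 500. Of the 19 matches, 16 began within 50 bases of the start and 11 of them lay after it. The forkhead word TGTTTAC, searched on both strands, stood in 1 window, that of NOP14 (2.27%, against 3.41% of all windows and 1.94% of those of tested genes with a mean of at least 500), and did not overlap the E-box there.

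The E-boxes of UTP20, NAT10, NOC3L, MYBBP1A and FBL are shown as examples among genes that rose, and the pair in NOP10, which did not pass, as a contrast. Each line gives the strand of the gene, 5′ to 3′, with the E-box in capitals and 12 bases to each side.
UTP20, chr12:101280083-101280112, plus strand, before the start: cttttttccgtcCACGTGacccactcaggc
NAT10, chr11:34105602-34105631, plus strand, before the start: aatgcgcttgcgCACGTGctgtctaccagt
NOC3L, chr10:94362903-94362932, minus strand, after the start: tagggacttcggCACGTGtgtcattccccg
MYBBP1A, chr17:4555340-4555369, minus strand, after the start: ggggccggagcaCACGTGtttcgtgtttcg
FBL, chr19:39846356-39846385, minus strand, after the start: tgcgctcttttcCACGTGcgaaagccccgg
NOP10, chr15:34343130-34343159, minus strand, before the start: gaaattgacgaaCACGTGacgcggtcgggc
NOP10, chr15:34343289-34343318, minus strand, before the start: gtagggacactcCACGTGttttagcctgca

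The 17 genes with the word had a median log2 fold change of 0.53 (0.06 to 0.82), and 16 of them were called higher. The 27 without it had a median of 0.44 (0.09 to 1.17), and 26 were called higher. The ranges overlapped from 0.09 to 0.82, and DKC1 and NOP56, with the largest rises among the matched genes, were among those without the word in this window. The 8 genes with no window were RRS1 (1.15), NOLC1 (0.85), RRP12 (0.78), BOP1 (0.76), RRP1B (0.49), MYC (0.49), DDX18 (0.48) and NOP58 (0.39). The comparison of genes with and without the word therefore does not cover all 52. These matches describe the letters only and say nothing of binding. Sequence outside the windows was not read, and any part of either word in the rise was not tested.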

How the data were processed

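The deposited table holds gene counts that the authors divided by a size factor per sample (a normalized signal, per the file headers), with the authors' log2 fold change, its error, a test score and p-values. HISAT2, DESeq2 and the builds GRCh38 and GRCm38 are named in the submitters' processing notes. The library kit was NEBNext Ultra RNA, per the labels' protocols, and the counter, annotation and strand setting are not given in the sources used here. Of 61862 lines, 3 were broken and left out. Every value of each sample was then a whole multiple of 1 step to within 0.01 read, which gave the reads.

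Groups came from sample titles. Limma 3.58.1 (R 4.3.3; trend and robust options) was run on log2(normalized count + 1) for genes with a mean of at least 10. Benjamini-Hochberg adjustment covered all 18460 genes, with a threshold of 0.05, and fold changes are on that scale, which understates low genes. On recovered reads, edgeR 4.0.16 called 9538 genes and DESeq2 1.42.0 called 8493. The limma step was tested on simulated data. Positions and lengths are from GENCODE release 29 (GRCh38).

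The genes, lists and tests were chosen with earlier results of these data known. Values per sample were given for MYC, the snoRNP, chaperone and polymerase genes listed, and the 2 largest and 2 smallest changes of each larger role group. From other lists the largest rise and fall past the threshold were named, and every called gene of the MYC network. NOP14's samples, NOP14-AS1, POLR1H, POLR1D, POLR1F, CDK4, LDHA, LGALS8, LPCAT3 and RMND5B were given after their values were seen. So were SNORD86 and the other snoRNA rows with a mean of at least 10.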

Additional observations from a re-analysis of the deposited data

How the results depend on the processing

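Of the 52 genes, 45 kept their side of the threshold and their sign under each of 20 alternatives that gave a value for them (pseudocounts of 0.5 and 5, no filter or a mean of at least 50, 4 normalizations, limma without its options, the block, a threshold of 0.01, 3 models on recovered reads and each sample left out). UBTF, HEATR1, EMG1, NOP16 and NOC2L lost their call under some. The median of the 52 genes moved from 0.50 to 0.40 with equal library totals, 0.42 with quantile normalization and 0.41 with cyclic loess. NHP2 changed sign under these (-0.0042, -0.010 and -0.031), and NOP10 with equal totals (-0.036). With equal totals the median of all tested genes also moved, from 0.0039 to -0.093. Leaving out 1 sample gave 48 to 50 of the 52 higher and 0 lower, a median of 0.49 to 0.52, 4485 to 4746 of all genes higher and 4038 to 4434 lower, and -2.91 to -2.72 for FOXA1. Same-numbered samples did not deviate together (correlations -0.010, 0.011 and -0.011). With the replicate number as a block, 49 of the 52 were higher, 0 were lower and the median was 0.50, and only NOC2L lost its call among the 52 (adjusted p = 0.0534). Replicates of a group differed by more than counting noise (chi-square per gene of 2.52 to 5.13), and how much of a single gene's error comes from counting was not tested. Of 37 other small-subunit genes, 1 was lower with equal totals, quantile normalization, cyclic loess, limma-voom or FOXA1 siRNA replicate 3 left out, against 0.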
